A study of Aedes aegypti with 20 samples.

Results

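Ion and water transport genes were followed in the hearing organ and the head of the yellow fever mosquito Aedes aegypti. The set was given by 8 gene IDs, 1 for the alpha subunit of the Na/K ATPase, 3 for cation-chloride cotransporters and 4 for aquaporins. The deposited table held rows for 6 of the 8, among 19804 gene IDs in all, with 41 transcripts among 34477. The aquaporins AAEL003512 and AAEL014108 were not analysed here. Of the 6 IDs, 5 had enough reads to be tested, among 11381 tested genes. The classes come with the choice of IDs, since the table pairs no ID with a name, and 0 of its IDs were found in RefSeq's table of genes for AaegL5.0.

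Johnston's organ, the hearing organ, lies in the pedicel of the antenna. RNA was sequenced from pedicels and heads of mosquitoes of the Liverpool strain, in 4 groups of 5 libraries: pedicels of virgin males, pedicels of females that had taken no blood, and heads of each. All animals had spent 2 days in an incubator and were frozen at zeitgeber time 12. Sample titles name heads and pedicels, while the columns of counts name the same samples brain and JO. Head is used here as in the titles, and which of head and brain was taken is not settled. The sources used here do not say whether a head and a pedicel library with the same number share animals, or whether antennae stayed on the heads. Since nothing states that the repeats of a group were separate sets of animals, p-values refer to the spread among these libraries only, which may be technical.

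In insect sensilla, the cilia of the sensory neurons stand in a lymph rich in potassium that support cells secrete. The Na/K ATPase uses ATP to move sodium out of cells and potassium in, and its alpha subunit is the catalytic one. Cation-chloride cotransporters carry chloride across the membrane together with sodium, potassium or both, down gradients that the pumps set up. Aquaporins are channels that let water, and in some cases small solutes, follow ions across membranes.

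The libraries held 5060010 to 9404311 estimated counts each. Levels are given as normalised read counts (counts per size-adjusted library, CPM), on which the 3 counts that a count of 0 allows came to 0.263 to 0.957 CPM, for counting error only. Tissue markers could not be checked by name. The median level of 50 head transcripts, in percent of its mean over the heads, averaged 54.6% (SD 14.9, n = 5) over the female pedicels. Over the male pedicels it averaged 11.4% (SD 14.1, n = 5), where library 2 had 36.6% and the remaining 4 had 4.34% to 5.64%. These transcripts were chosen as the lowest in any pedicel, so the low values, and the gap between the sexes, are partly fixed by that choice. In 5 pedicel libraries, male pedicels 3 and 4 and female pedicels 3, 4 and 5, over 20% of counts lay in transcripts carrying exactly the values of a transcript of another gene ID. None of the members' transcripts was such a copy (0 of 41).

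The members did not move together. In males, the cotransporters AAEL006180 and AAEL009888 and the aquaporin AAEL005008 were higher in the pedicel than in the head. In females, AAEL006180 and AAEL005008 were higher in the pedicel and the pump AAEL012062 was lower. Between the sexes, the pump and AAEL006180 were higher in male than in female pedicels, while AAEL009888 and AAEL005008 were lower in male than in female heads. The second aquaporin, AAEL005001, passed no test between these groups. At an adjusted p under 0.05 (edgeR quasi-likelihood test, Benjamini-Hochberg over 11381 genes), 2 of the 5 tested members differed by sex in the pedicel, where 39.6% of all tested genes did (18.4% higher and 21.2% lower in males). In the head, 2 of 5 differed by sex, against 7.86% of all tested genes (1.12% higher and 6.73% lower in males). Between pedicel and head, 3 of 5 differed in males, against 51% of tested genes (26.7% higher and 24.3% lower in the pedicel), and 3 of 5 in females, against 35.4% (18.9% higher and 16.5% lower). AAEL009888, counted among those called in the head and in males, reached the count that the filter on low values asks in 0 of 5 male heads. With only males in the fit, it did not pass the filter and 2 members were called. The median log2 fold of the 5 members, pedicel over head, was 1.86 in males, which is the value of AAEL009888 itself, and -0.06 in females, beside 0.10 and 0.08 over all tested genes. For sex, male over female, it was -0.21 in the pedicel and -0.06 in the head, beside -0.02 and 0.03 over all tested genes. In bulk tissue, fewer cells of a type and less RNA per cell cannot be told apart.

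**Figure D1:**
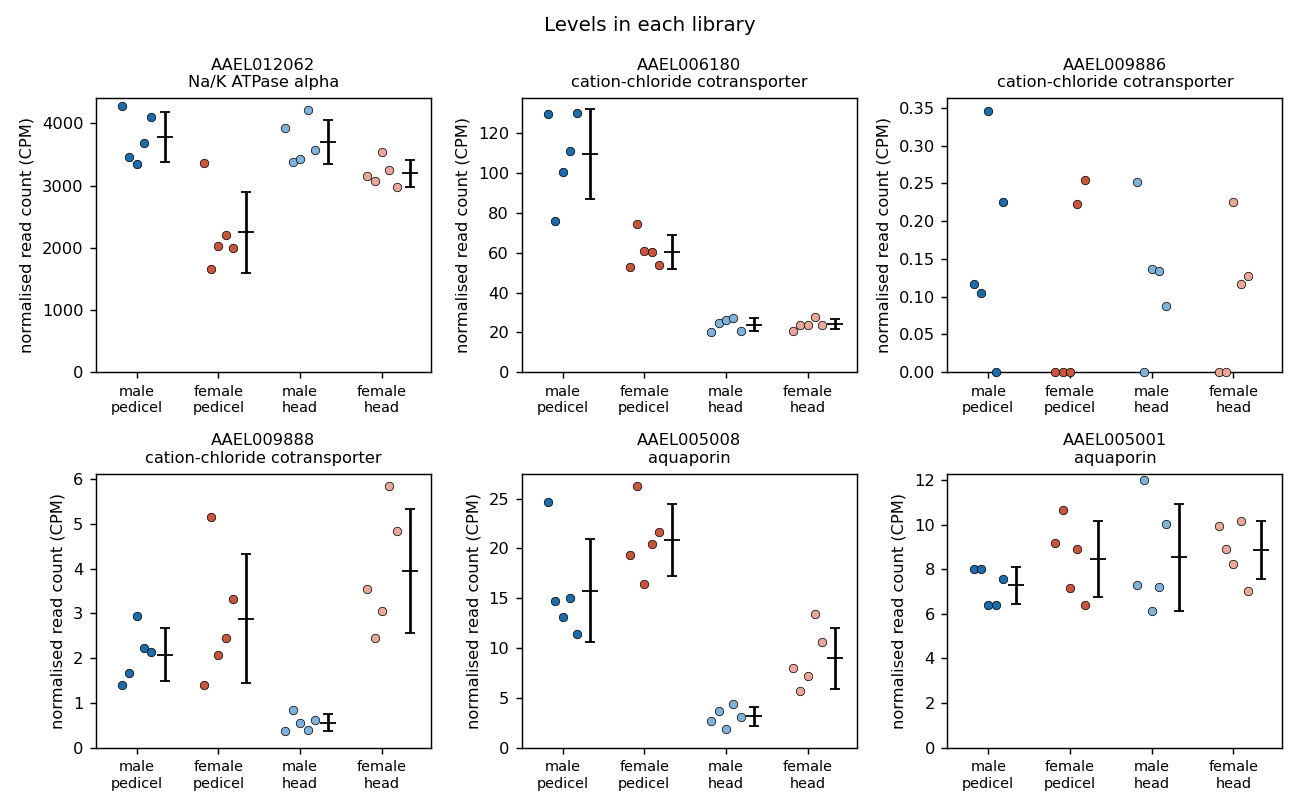
Normalised read count (CPM, vertical axis, from 0) of each of the 6 genes in every library, by group. Points are libraries in the order of their numbers, and bars beside them give the mean and SD (n = 5), which are left out for AAEL009886. The male pedicel points of AAEL006180, from 76.2 to 130.5 CPM, all lie above the female pedicel points, and all pedicel points lie above all head points. The male head points of AAEL009888 and AAEL005008 lie below those of every other group.

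The pump, AAEL012062, was the member with the most counts. Its levels were 4277, 3465, 3355, 3691 and 4104.5 CPM in libraries 1 to 5 of the male pedicel. In female pedicels 1 to 5 it stood at 3361, 1658, 2032, 2201 and 2003 CPM. Female pedicel 1 lay within the range of the male pedicels, just above male pedicel 3, and the other female pedicels lay below all males. In heads, males 1 to 5 had 3922, 3386, 3430, 4209.7 and 3573 CPM. Female heads 1 to 5 had 3155, 3076, 3540, 3249.9 and 2974 CPM. Head libraries of the sexes overlapped, and male pedicels overlapped with male heads.

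The order of the groups was male pedicel, male head, female head, female pedicel, with means of 3778 ± 400.1, 3704 ± 352, 3199 ± 216 and 2251 ± 651 CPM (SD, n = 5 each). The first step did not pass the test (log2 fold 0.03, SE 0.16, edgeR adjusted p = 0.9), nor did the second (log2 fold 0.21, male over female head, SE 0.16, adjusted p = 0.48). For these the 95% intervals ran from -0.31 to 0.37 and from -0.13 to 0.55 on the log2 scale. In females the pump was lower in the pedicel than in the head (log2 fold -0.51, SE 0.16, edgeR adjusted p = 0.019). It did not pass in a fit of the 10 female libraries alone (adjusted p = 0.075) and without the 5 pedicels with over 20% of identical copies, which left a log2 fold of -0.34 (adjusted p = 0.26).

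Between the pedicels the pump was 1.68-fold higher in males (log2 fold 0.75, SE 0.16, edgeR adjusted p = 1.1e-03). Without female pedicel 1, the log2 fold was 0.94. It was 0.66 without the 5 pedicels with over 20% of identical copies (adjusted p = 0.059). The levels of head transcripts given above differ between the same libraries. In a fit of the pedicels alone the log2 fold was 0.74 (adjusted p = 0.021). With that level as a covariate there it was 0.83 (adjusted p = 0.35), a fit in which sex and the level are largely confounded. The sex difference of the pump was larger in the pedicel than in the head by 0.54 on the log2 scale (SE 0.23), which did not pass the test (edgeR adjusted p = 0.13). It passed with DESeq2 (adjusted p = 0.036), with limma-voom and sample weights (adjusted p = 9.3e-03) and without female pedicel 1 (adjusted p = 0.01).

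Among the cotransporters, AAEL006180 set the pedicel apart in both sexes. Male pedicels 1 to 5 had 129.8, 76.2, 101, 111 and 130.5 CPM of it. Female pedicels 1 to 5 had 52.7, 74.3, 61.0, 60.5 and 54.1 CPM. The sexes did not overlap, with male pedicel 2 the lowest male and female pedicel 2 the highest female. Male heads 1 to 5 stood at 19.998, 24.6, 26.3, 27.1 and 20.8 CPM. Female heads 1 to 5 stood at 20.7, 23.7, 23.9, 27.8 and 23.8 CPM. All heads lay below all pedicels, and the heads of the sexes covered nearly the same range.

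In males AAEL006180 was 4.62-fold higher in the pedicel than in the head, with 109.7 ± 22.6 CPM and 23.8 ± 3.22 CPM (mean ± SD of 5 libraries, log2 fold 2.21, SE 0.15, edgeR adjusted p = 3.4e-10). In females it was 2.52-fold higher, with 60.5 ± 8.54 CPM and 23.996 ± 2.52 CPM (mean ± SD of 5 libraries, log2 fold 1.33, SE 0.14, adjusted p = 8.0e-07). These calls held under every alternative tried for them. The pedicels differed by sex (log2 fold 0.86, male over female, SE 0.14, edgeR adjusted p = 9.2e-05), while the head gave a log2 fold of -0.01 (SE 0.14, adjusted p = 0.97, 95% interval -0.32 to 0.29). The difference of these differences was 0.87 on the log2 scale (SE 0.20, edgeR adjusted p = 8.7e-03). With library totals alone it was 1.19 and did not pass (adjusted p = 0.066). For this interaction 3 of the 5 members passed, all 3 positive, against 11.9% of all tested genes (6.46% positive and 5.42% negative). Of these, AAEL009888 reached the filter's count in 0 of 5 male heads.

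The level of AAEL006180 is set here beside the level of head transcripts, which were chosen as the lowest in any pedicel, so that the low pedicels partly fix that measure. Male pedicel 2, the male with the highest level of head transcripts (36.6%), had the least AAEL006180 among males, at 76.2 CPM. Female pedicel 2, the female with the lowest level of head transcripts (34.1%), had the most among females, at 74.3 CPM. Among the other 4 male pedicels the order ran the opposite way, with 101, 111, 129.8 and 130.5 CPM at 4.34%, 4.77%, 5.58% and 5.64% of head transcripts. With the log2 level of head transcripts as a covariate in a fit of the pedicels alone, chosen after seeing the data, the sex difference was 0.20 on the log2 scale and was no longer called (edgeR adjusted p = 0.68). Sex and the level are largely confounded in this fit, which therefore cannot tell them apart. A fit of the pedicels alone without the covariate gave 0.85 (adjusted p = 3.4e-03). Over all genes, the fit of the pedicels alone called 3245 without the covariate and 164 with it.

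**Figure D2:**
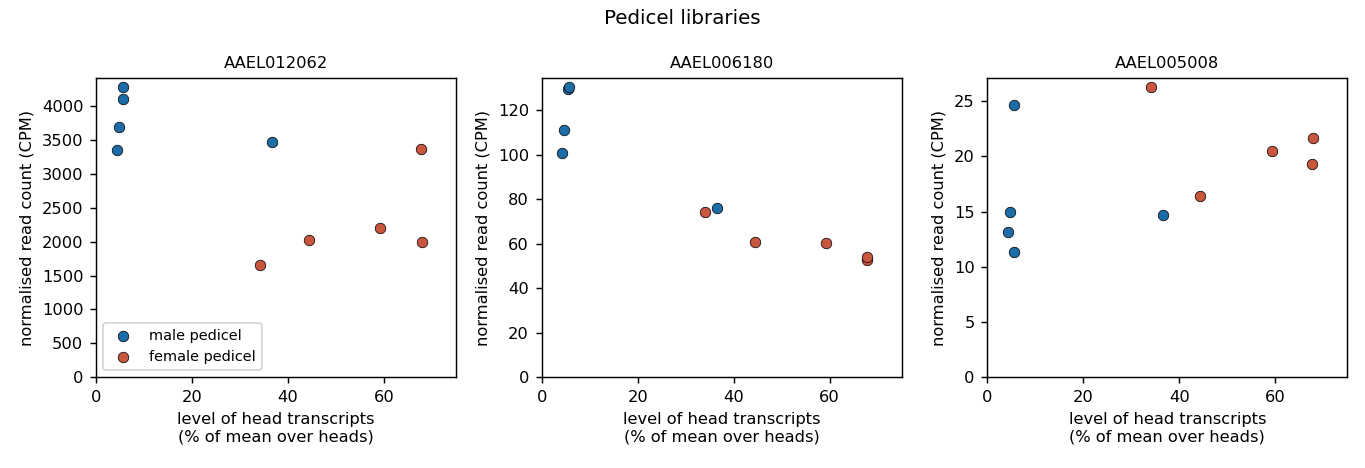
Normalised read count (CPM, vertical axis, from 0) of 3 members in the 10 pedicel libraries against the level of 50 head transcripts in the same library, in percent of the mean over the heads. For AAEL006180 the highest points (101 to 130.5 CPM) are the 4 male pedicels at 4.34% to 5.64%, and male pedicel 2 and female pedicel 2, at 36.6% and 34.1%, lie together at 76.2 and 74.3 CPM. The pump shows no such order, with female pedicels 1 and 5, both near 68%, at 3361 and 2003 CPM.

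AAEL009888, a further cotransporter, had few counts, 329 over the 20 libraries, and was lowest in male heads. It stood at 0.377, 0.844, 0.545, 0.401 and 0.615 CPM in male heads 1 to 5, from 3 to 7 counts each. In female heads 1 to 5 it stood at 3.55, 2.45, 3.04, 5.84 and 4.84 CPM, from 19 to 50 counts. All female heads were above all male heads. Male pedicels 1 to 5 had 1.40, 1.67, 2.94, 2.23 and 2.14 CPM. Female pedicels 1 to 5 had 1.41, 5.15, 2.08, 2.45 and 3.32 CPM. The pedicels overlapped with each other and, in females, with the heads.

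In the head AAEL009888 was lower in males (log2 fold -2.80, male over female, SE 0.37, edgeR adjusted p = 3.5e-05), and leaving out any 1 library gave log2 folds from -2.96 to -2.62. In the pedicel the log2 fold was -0.49 (SE 0.34, adjusted p = 0.27). The interaction was 2.32 on the log2 scale (SE 0.50, edgeR adjusted p = 5.8e-03) and was called under all 29 alternatives. Of these, 20 leave out 1 library each and so share most of their data. In males the pedicel was higher than the head (log2 fold 1.86, SE 0.38, adjusted p = 4.4e-04). In females the log2 fold of -0.46 (SE 0.33) did not pass (adjusted p = 0.29). With library totals alone it was -0.98 and passed (adjusted p = 0.039), under a scaling that also lowered the median of all genes in this contrast. The order of groups was female head, female pedicel, male pedicel, male head, with means of 3.94, 2.88, 2.07 and 0.556 CPM, and only the last step exceeded the spread. No male head reached the count that the filter on low values asks of a library (0 of 5), so a gene this low entered the tests only through the other groups.

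The remaining cotransporter, AAEL009886, was close to undetected. Over the 20 libraries it had 17 counts, at most 2 in a library and none in 7 libraries. It was not tested. A difference between groups was not detectable at this depth.

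The aquaporin AAEL005008 was higher in pedicels than in heads and, in the means, lower in males, though the pedicels of the sexes overlapped. Female pedicels 1 to 5 had 19.3, 26.3, 16.4, 20.5 and 21.7 CPM. Male pedicels 1 to 5 had 24.7, 14.7, 13.1, 15.0 and 11.4 CPM. Male pedicel 1 lay among the females, and the other males lay below the lowest of them. Female heads 1 to 5 stood at 8.01, 5.68, 7.21, 13.4 and 10.6 CPM. Male heads 1 to 5 stood at 2.64, 3.71, 1.91, 4.41 and 3.07 CPM, all below the female heads.

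In males AAEL005008 was 5.02-fold higher in the pedicel than in the head, with 15.8 ± 5.17 CPM and 3.15 ± 0.963 CPM (mean ± SD of 5 libraries, log2 fold 2.33, SE 0.26, edgeR adjusted p = 7.2e-07). In females it was 2.32-fold higher, with 20.8 ± 3.62 CPM and 8.98 ± 3.06 CPM (mean ± SD of 5 libraries, log2 fold 1.21, SE 0.24, adjusted p = 8.9e-04). Scaling by library totals alone reduced the female value to 0.70 and ended its call (adjusted p = 0.082), under a scaling that moved the median of all genes in this contrast to -0.43. In the head it was 2.85-fold lower in males (log2 fold -1.51, male over female, SE 0.26, edgeR adjusted p = 6.6e-04), a call kept under all 20 alternatives.

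Between the pedicels the log2 fold of AAEL005008 was -0.40, male over female (SE 0.24, edgeR adjusted p = 0.2). Without male pedicel 1 it was -0.63 and passed the test (adjusted p = 0.042). The interaction, 1.11 on the log2 scale (SE 0.35), passed narrowly (adjusted p = 0.046), and 17 of 29 alternatives lost it, with adjusted p from 0.021 to 0.10. In the order of groups, female pedicel, male pedicel, female head and male head, the step from male pedicel to female head was 0.81 on the log2 scale (SE 0.24, edgeR adjusted p = 8.7e-03), so only the first step was within the spread.

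AAEL005001, the second aquaporin, was level across the groups. Male pedicels 1 to 5 had 8.02, 8.02, 6.401, 6.38 and 7.54 CPM, and female pedicels 1 to 5 had 9.17, 10.7, 7.16, 8.90 and 6.38 CPM. Male heads 1 to 5 had 7.29, 11.99, 6.14, 7.21 and 10.01 CPM, and female heads 1 to 5 had 9.96, 8.90, 8.23, 10.2 and 7.004 CPM. All pairs of groups overlapped. The fitted log2 folds ran from -0.22 (males, pedicel over head, 95% interval -0.60 to 0.17) to -0.06 (female pedicel over head, -0.44 to 0.33, and male over female head, -0.43 to 0.32). None was called in any alternative, with adjusted p of 0.16 at the lowest.

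**Figure D3:**
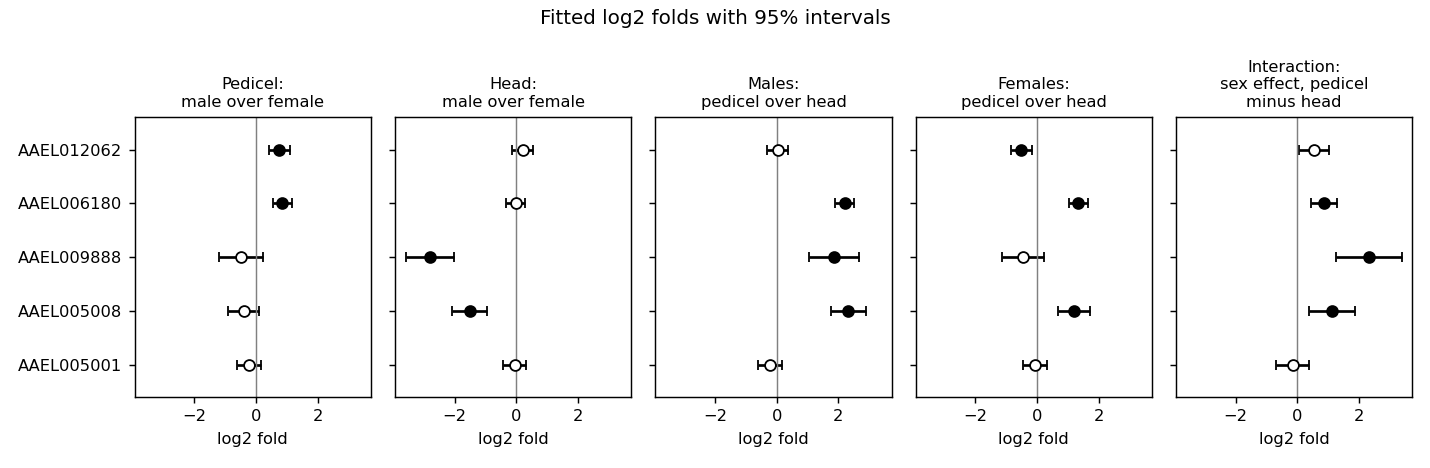
Fitted log2 folds (horizontal axis) of the 5 tested members in the 4 comparisons and the interaction, with 95% intervals from the edgeR standard errors. Filled points passed an adjusted p under 0.05 and open points did not. AAEL006180 and AAEL005008 lie to the right of 0 in both tissue panels, AAEL009888 and AAEL005008 to the left of 0 in the head panel, and AAEL005001 near 0 in every panel.

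Ratios of counts within a library, which no scaling between libraries can change, were formed for a pair of genes in each case and were chosen after their values were seen. Per 1000 counts of the pump, pedicels held 28.9 ± 3.91 counts of AAEL006180 in males and 29.0 ± 10.4 in females. Heads held 6.46 ± 1.05 in males and 7.52 ± 0.846 in females (mean ± SD of 5 libraries). Pedicels and heads did not overlap in either sex (two-sided exact permutation p = 0.0079 each, the smallest that 5 against 5 libraries can give). Female pedicels ranged from 15.7 in library 1 to 44.8 in library 2, and the ratio did not differ detectably between the sexes in the pedicel (exact permutation p = 0.98) or in the head (p = 0.12). Both genes were higher in male pedicels, and their ratio was near equal in the means of the sexes.

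For each count of the aquaporin AAEL005001 pedicels held 2.16 ± 0.594 counts of AAEL005008 in males and 2.51 ± 0.512 in females. Heads held 0.380 ± 0.131 in males and 1.03 ± 0.368 in females (mean ± SD of 5 libraries). The head libraries of the sexes did not overlap, with males at 0.307 to 0.611 and females at 0.638 to 1.51 (exact permutation p = 0.0079). Pedicels and heads did not overlap in either sex (exact permutation p = 0.0079 each). The pedicels of the sexes overlapped (exact permutation p = 0.36). These 8 ratio comparisons were not adjusted for their number, and counts of different genes are not levels per length.

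**Figure D4:**
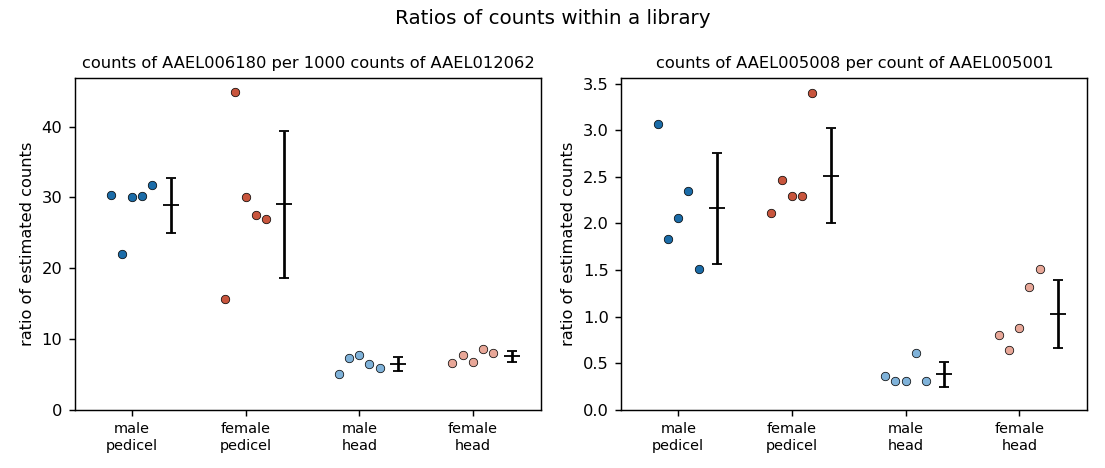
Ratios of estimated counts within each library (vertical axis, from 0), with the mean and SD beside the 5 libraries of a group. The left panel gives counts of AAEL006180 per 1000 counts of the pump, with pedicels at 15.7 to 44.8 and heads at 5.10 to 8.56. The right panel gives counts of AAEL005008 per count of AAEL005001, with male heads lowest at 0.307 to 0.611.

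Of the 5 transcripts of AAEL006180, the most abundant differed between the tissues, while the sum of the other 4 did not pass the test. It was chosen by its counts over the same 20 libraries, and pedicels hold most counts of this gene. The comparison is thus not independent of the choice. The same transcript also held the largest share of the summed counts in male heads (35.2%) and in female heads (39.0%). Transcript AAEL006180-RD averaged 97.5 ± 17.0 CPM in the pedicels of males and 47.5 ± 8.17 CPM in those of females. In the heads it averaged 7.74 ± 6.84 CPM in males and 9.235 ± 2.98 CPM in females (mean ± SD of 5 libraries). It was 12.6-fold higher in pedicels than in heads in males and 5.15-fold higher in females, and 2.05-fold higher in male than in female pedicels, with no overlap in any of these (two-sided exact permutation p = 0.0079 each). The remaining transcripts together averaged 12.2 ± 6.65, 13.0 ± 8.72, 16.03 ± 6.92 and 14.8 ± 3.05 CPM in the same order, and no comparison between groups passed (exact permutation p from 0.38 to 0.88). A p that misses the threshold does not show that these were equal.

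As a share of the counts of AAEL006180, transcript RD took 84.3% to 95.3% in the pedicels of males and from 62.15% up to 100% in those of females. In heads it took 0% to 68.25% in males and 20.6% to 50.4% in females. In males, pedicels and heads did not overlap, and in females they did not overlap either (exact permutation p = 0.0079 each). Male head 2 had no estimated count of RD, and there all counts of the gene went to transcript RB. The division between transcripts is an estimate from reads they share, and transcript RE of this gene reached 78.8% in male head 1.

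In the test of transcript usage over the whole table (edgeR diffSpliceDGE, Simes' method over the transcripts of a gene), AAEL006180 had an adjusted p of 0.069 for tissue in males, where 3.66% of 3387 genes were called. It passed without male head 2 (adjusted p = 0.045) and with limma's diffSplice (adjusted p = 0.044). Its transcript RE passed alone for tissue in males (log2 fold relative to the gene -7.55, adjusted p = 0.049, against 1.67% of 11544 transcripts called), and was near 0 in male pedicels. RE was near 0 in male heads 2 and 5 as well, against 15.8, 8.35 and 10.1 CPM in male heads 1, 3 and 4. Transcript RD, whose shares did not overlap, was not called in males (diffSpliceDGE, log2 fold relative to the gene 0.94, adjusted p = 0.78). Nor was RD called for tissue in females (log2 fold relative to the gene 0.68). For tissue in females and for sex in either tissue the adjusted p of the gene ran from 0.28 to 1. None of the members was called there (0, against 1.39% of genes and 0.494% of transcripts for sex in the pedicel, 0.62% and 0.182% in the head, and 1.71% and 0.65% for tissue in females).

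The pump has 25 transcripts in the table, and AAEL012062-RE held the most counts. In pedicels it averaged 1988 ± 376 CPM in males and 1007 ± 597.5 CPM in females, and in heads 1159 ± 214 and 1195 ± 114 CPM (mean ± SD of 5 libraries). The sum of the others averaged 1791 ± 275, 1244 ± 128, 2545 ± 445 and 2004 ± 295 CPM in the same order. In males, then, RE was 1.72-fold higher in the pedicel than in the head, without overlap (two-sided exact permutation p = 0.0079), and the others were 1.42-fold lower (p = 0.024), while the whole gene differed by a log2 fold of 0.03. With library totals alone the difference of RE in males did not pass (exact permutation p = 0.14).

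In females the other transcripts were 1.61-fold lower in the pedicel than in the head, without overlap (exact permutation p = 0.0079), and RE did not differ detectably (p = 0.56). Female pedicel 1, with 2057 CPM of RE against 577 to 865.5 CPM in the other female pedicels, stood apart. Without it, RE too was lower in the female pedicel (exact permutation p = 0.0079). Between male and female pedicels, the other transcripts did not overlap, 1.44-fold higher in males (exact permutation p = 0.0079), and RE was 1.97-fold higher (p = 0.04, or 0.056 with library totals alone).

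As a share of the pump's counts, RE took 52.5 ± 6.69% (males) and 42.3 ± 11.1% (females) in pedicels, and 31.6 ± 7.42% and 37.6 ± 5.01% in heads (mean ± SD of 5 libraries). The difference between pedicels and heads in males gave an exact permutation p of 0.016, with male pedicel 4 at 44.65% just below male head 2 at 44.7%. In the test over the whole table the pump's usage of transcripts was not called for tissue in males (adjusted p = 0.64), but it was with limma's diffSplice (adjusted p = 2.2e-03) and without male head 2 (adjusted p = 0.049). The 16 comparisons of transcript levels and those of shares were chosen after their values were seen and carry no adjustment.

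**Figure D5:**
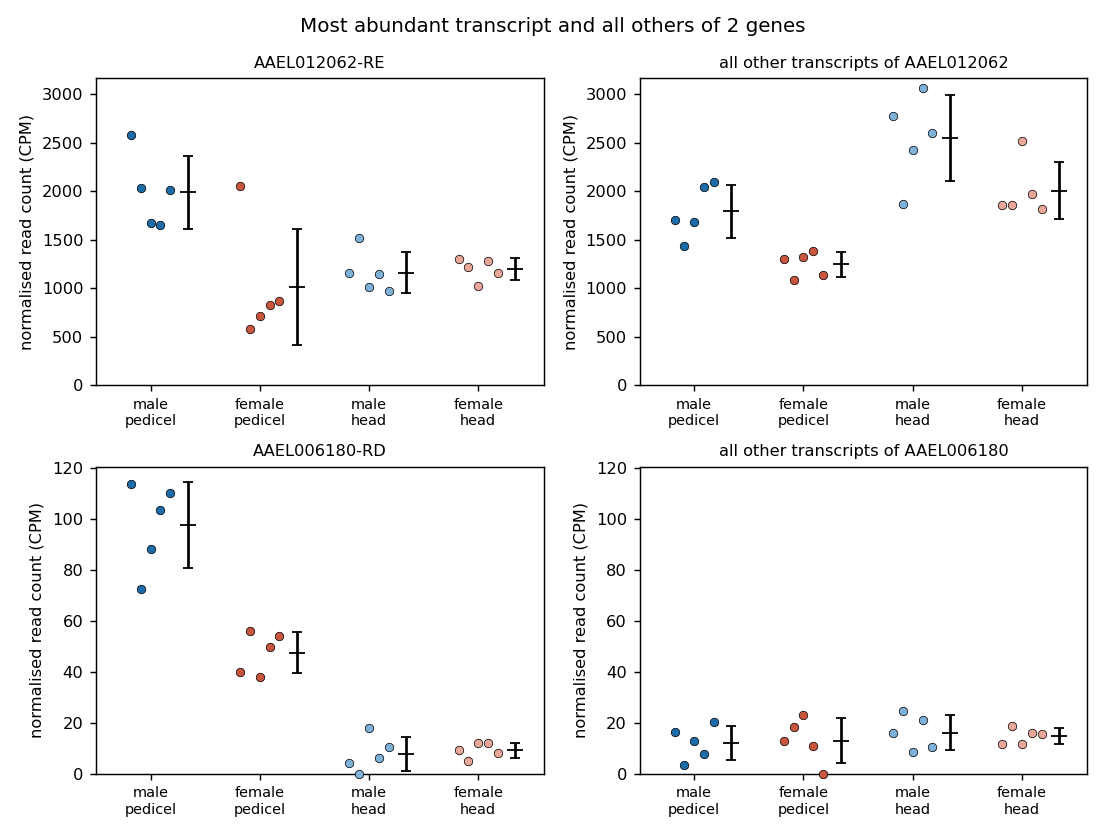
Normalised read count (CPM, vertical axis, from 0) of the most abundant transcript (left) and of the sum of all other transcripts (right) for the pump (top) and the cotransporter AAEL006180 (bottom), with the mean and SD beside the 5 libraries of each group. AAEL006180-RD spans 72.6 to 113.6 CPM in male pedicels and 0 to 17.96 CPM in male heads, while the other transcripts of the gene stay at 0 to 24.65 CPM over the 4 groups. For the pump, the mean of RE is highest in male pedicels and that of the other transcripts in male heads.

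The genes whose profile over the 20 libraries was nearest to that of each member, by the root mean square difference of centred log2 CPM, are given by ID, since the sources used here give them no name. Nearest to the pump were AAEL019546 (difference 0.12) and AAEL019685 (0.13), where the pump's own profile had a root mean square of 0.37. Nearest to AAEL006180 were AAEL019814 (0.18) and AAEL007444 (0.20), against 0.94 for its own profile. AAEL019814 averaged 321 and 154 CPM in the pedicels of males and females and 66.6 and 61.4 CPM in their heads. For AAEL009888 the nearest were AAEL012886 (0.38) and AAEL012549 (0.48), against 0.96. For AAEL005008 they were AAEL008365 (0.30) and AAEL004873 (0.32), against 1.07. AAEL004873 averaged 69.7, 78.8, 11.3 and 32.0 CPM in the same order of groups. For AAEL005001, whose own profile had 0.26, they were AAEL017421 and AAEL005659, both at 0.19.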

How the data were processed

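Per the submitters' processing notes, FastQC, HISAT2 and featureCounts were used; the sources used here give no version, build or annotation, nor the origin of the fractional values. The authors deposited estimated counts for each transcript, unscaled, and each column was assigned by its sample's description. Counts were summed per gene ID and rounded. Genes passing edgeR's filterByExpr by group (minimum count 10) were fitted with all 20 libraries and a mean per group (edgeR 4.0.16, robust glmQLFit, then glmQLFTest, TMM factors of 0.49 to 1.31, R 4.3.3). Benjamini-Hochberg adjustment ran over all genes of a contrast, and calls are at an adjusted p under 0.05. Standard errors are the absolute log2 fold over the square root of F. CPM uses TMM-scaled totals, and profiles use log2 CPM with a prior count of 2.

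The 50 head transcripts were those lowest in any pedicel among genes that reached 50 CPM in every head and differed there by sex by under 0.5 on the log2 scale. Identical copies matched to 3 decimals with a maximum above 5. All members were named. For each tested member the 2 nearest profiles were named. A list of other ion transport genes and cell type markers rested on gene names and was not analysed. Members, lists and tests were chosen with earlier results of these data known. No pair of libraries of a group agreed within sampling noise (lowest chi-square per degree of freedom 5.39). The fits were tested on simulated data. Alternatives were other scalings and filters, DESeq2 1.42.0, limma-voom (limma 3.58.1), fits of only the groups compared, a replicate block and leaving out libraries.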

Additional observations from a re-analysis of the deposited data

Results flagged for a closer look

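In AAEL005008, male pedicel 1, at 24.7 CPM, stood far from the other 4 male pedicels, which held 11.4 to 15.0 CPM. Its gap to the nearest of them was 0.73 of the range of the group, above Dixon's 95% critical value of 0.71, which chance alone exceeds in about 1 in 20 groups. Of the 24 groups examined for the 6 genes, no other exceeded it, and female pedicel 1 of the pump came close, with 0.68.

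The difference between the sexes differed from pedicel to head in 3 members, tested as an interaction with edgeR. It was 0.87 on the log2 scale for the cotransporter AAEL006180 (adjusted p = 8.7e-03, or 0.066 with library totals alone), 2.32 for the cotransporter AAEL009888 (adjusted p = 5.8e-03) and 1.11 for the aquaporin AAEL005008 (adjusted p = 0.046). The call of AAEL005008 was lost in 17 of 29 alternatives. AAEL009888 reached the filter's count in 0 of 5 male heads, so it entered the test only through the other groups. For AAEL006180 the sexes differed by the test in the pedicel alone, and for the other 2 in the head alone. In the pedicel AAEL005008 had a log2 fold of the same sign (-0.40), which passed without male pedicel 1 (-0.63, edgeR adjusted p = 0.042).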

How the results depend on the processing

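Of 25 member results (5 genes in 5 contrasts), 16 kept their side of the threshold under all of their 20 to 29 alternatives, and 0 called results changed direction. Of the 2 members called for sex in the pedicel, 0 were left with the level of head transcripts as a covariate and 1 without the 5 pedicels above 20% of identical copies, both chosen after seeing the data. In the fit with the covariate, sex and the level are largely confounded. Library totals alone left 1 of the 3 interaction calls, AAEL009888, and moved the median log2 fold of all genes to 0.35 for sex in the pedicel, -0.12 and -0.43 for tissue in males and females and 0.29 for the interaction. For transcript usage by tissue in males, limma's diffSplice called 2 members where edgeR called 0 (and 3.66% of 3387 genes), and leaving out 1 library gave 0 to 2. The share of all genes called under these alternatives is not given here, so these counts cannot be read as particular to the members. The cause of these changes was not tested.

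The number of genes called in the head, 894, became 571 with library totals, 1497 with head libraries alone and 1662 without male head 2 and female head 3. That of the interaction, 1352, became 426 with library totals, 3245 with sample weights and 2694 without male pedicel 2. With the replicate number as a block, the members called stayed at 2, 2, 3, 3 and 3 over the 5 contrasts. Over all 6 pairs of groups, same-numbered libraries correlated at -0.09 to 0.41, not above 0.1 in every pair. The best match was the library's own number for 3 of 5 libraries between male and female pedicels. It was also 3 of 5 between male and female heads, and between male pedicels and male heads. Between female pedicels and female heads it was 1. For male pedicels with female heads, and female pedicels with male heads, it was 2. Without pairing, 1 of 5 libraries would be best matched by its own number, and only female pedicels with female heads did not exceed that. Whether the numbers pair the libraries, or whether libraries of the same number share a batch, was not tested. AAEL009886, with 17 counts in all, was below the filter on low values, and AAEL009888 was below it in the fit of males alone, which gave it no value.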

Other observations

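Transcript AAEL012062-RI of the pump took a smaller share of the gene's counts in pedicels than in heads. In males it took 5.59% to 8.67% in pedicels against 12.6% to 19.97% in heads. In females it took 6.99% to 10.8% in pedicels against 11.6% to 16.2% in heads, and neither sex showed an overlap. Its usage was not called over the whole table for tissue in males (edgeR diffSpliceDGE, log2 fold relative to the gene -0.79, adjusted p = 0.55). It was not called in females either (log2 fold relative to the gene -0.46). RI was singled out after its values were seen. Of the pump's 25 transcripts, 6 never reached 1 estimated count in a library.

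In male heads all counts of the cotransporter AAEL009888 lay in transcript RC. In the other groups RC took 30.4% (male pedicels), 76.4% (female pedicels) and 44.2% (female heads) of the summed counts, with 22 counts in male heads and 71, 71 and 165 in the others. Transcript RE of the aquaporin AAEL005008 took 86.4%, 84.1%, 80.7% and 87.4% of the summed counts in male pedicels, female pedicels, male heads and female heads. For AAEL005001, the shares of its 3 transcripts spread widely between libraries of a group, with RB from 0% to 85.4% in male heads.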
